A study of Mus musculus with 15 samples.

Results

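The transcripts of dystrophin and of its associated protein complex were described in TA muscles and hearts of DBA/2-mdx mice. The 8 genes, chosen by name among the 56980 rows of the TPM table, were Dmd, Utrn, Dag1, Sgca, Sgcb, Sgcd, Sspn and Dtna, and all 8 passed the filter on low values in each fit. Bulk RNA-seq covered 15 libraries in 4 groups, all from mice of the label DBA/2J-mdx, that is the mdx allele of Dmd on the DBA/2J background, so that vehicle-treated controls carry the allele as well. TA muscles came from mice treated from 3 to 5 months of age, for 2 months, with vehicle (4 libraries, 2 from labelled males and 2 from labelled females) or with D + Q (4 libraries, all from labelled males). Hearts came from mice treated from 12 to 16 months of age, for 4 months, with vehicle (4 libraries, 2 from labelled males and 2 from labelled females) or with D + Q (3 libraries, 2 from labelled females and 1 from a labelled male). D + Q, the senolytic combination of dasatinib and quercetin, and vehicle were given 2 times per week. No wild-type library was analysed here, so none of the levels can be set against muscle that makes full-length dystrophin. The labels number the samples of a group without saying that each came from a separate mouse, so that all p-values measure the spread between these samples.

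Dystrophin is a long rod-shaped protein under the muscle fibre membrane that ties the actin cytoskeleton to a complex of membrane proteins, and through it to laminin outside the fibre. Dystroglycan, encoded by Dag1, spans the membrane and binds laminin, the sarcoglycans and sarcospan form a subcomplex beside it, and dystrobrevin binds dystrophin from the inside, where the complex also recruits signalling proteins such as neuronal nitric oxide synthase. In mdx mice a premature stop codon prevents full-length dystrophin from being made and the complex is reduced at the membrane, while utrophin, the closest relative of dystrophin, can take over part of its role. The values below are transcript levels and hold no information on the proteins.

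TPM, a measure of transcript abundance, divides the reads of a gene by its length and scales the result to the same sum in every library, so that levels of different genes can be set side by side. Read depth cannot be recovered from such values, and precision comes only from the spread between libraries. Within groups, libraries correlated between 0.977 and 0.991. The tissue labels held: the summed level of 10 skeletal fibre markers was 49534 to 62598 TPM in TA and 1331 to 1784 TPM in heart, and that of 8 cardiomyocyte markers was 74.9 to 190.1 TPM in TA and 23706 to 31412 TPM in heart. The library labelled D + Q heart replicate 3 goes against its label of male, with 47.2 TPM of Xist, the RNA of the silenced X chromosome, and 0.016 TPM of the Y-linked Ddx3y, and heart results are given with and without it where it matters. D + Q heart replicate 2 held 10.2 TPM of Myh4, a fast-fibre myosin, against at most 0.33 TPM in the other hearts. Hearts also differed in atrial RNA. The summed level of 6 atrial markers was 872 to 4267 TPM in vehicle hearts and 393 to 440.0 TPM in D + Q hearts. Myl7, the atrial myosin light chain, was at 94.1 to 730.1 TPM in the former and 3.46 to 4.54 TPM in the latter.

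In GENCODE M39 for GRCm39, Dmd spans chrX:81992474-84249747 on the plus strand with 16 transcripts, of which 6 are protein-coding, up to 14945 bases and 79 exons. Utrn lies at chr10:12257537-12745265, Dag1 at chr9:108081833-108152333, Sgca at chr11:94853605-94867273, Sgcb at chr5:73790086-73805133 and Sgcd at chr11:46787080-47879796, all on the minus strand. Sspn lies at chr6:145877367-145910950 on the plus strand. A gene-level TPM sums over every start and transcript of a gene. For Dmd this matters, because RefSeq gives it a start 2099425 bases inside the gene, from which a GENCODE coding transcript of 5272 bases and 13 exons runs, beside the upstream start of the 14945-base transcript. The promoters of both starts are shown for that reason, and those of Sgca and Sgcb because these subunits of the same subcomplex differed in their tissue pattern. Each window holds 250 bases before and 50 bases after a start, was taken from RefSeq (table on GRCm38.p6), matched GRCm39 exactly and at 1 place, and is written 5′ to 3′ on the strand of the gene. Capitals mark matches, on either strand, to the E-box CANNTG, the GC box GGGCGG, the N-box TTCCGG, the CArG box or the MEF2 site, and touching matches run together.
Dmd, upstream start, chrX:81992226-81992525: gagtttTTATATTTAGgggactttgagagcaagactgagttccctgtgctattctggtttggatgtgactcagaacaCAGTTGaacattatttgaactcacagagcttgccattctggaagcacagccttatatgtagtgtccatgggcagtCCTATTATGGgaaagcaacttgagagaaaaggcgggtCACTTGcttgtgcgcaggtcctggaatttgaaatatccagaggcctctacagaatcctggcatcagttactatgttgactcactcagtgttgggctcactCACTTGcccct
Dmd, internal start, chrX:84091651-84091950: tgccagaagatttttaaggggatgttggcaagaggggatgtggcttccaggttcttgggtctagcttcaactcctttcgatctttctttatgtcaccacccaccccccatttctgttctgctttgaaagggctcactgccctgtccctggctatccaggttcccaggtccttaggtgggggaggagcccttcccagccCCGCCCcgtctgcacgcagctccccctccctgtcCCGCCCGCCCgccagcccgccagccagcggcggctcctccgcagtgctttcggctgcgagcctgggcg
Sgca, chr11:94867104-94867403: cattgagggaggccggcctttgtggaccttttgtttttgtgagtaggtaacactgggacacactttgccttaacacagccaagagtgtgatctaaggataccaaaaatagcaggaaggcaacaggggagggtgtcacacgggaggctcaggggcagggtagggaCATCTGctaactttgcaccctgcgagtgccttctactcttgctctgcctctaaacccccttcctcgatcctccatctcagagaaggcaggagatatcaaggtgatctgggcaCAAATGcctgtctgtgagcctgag
Sgcb, chr5:73805031-73805330: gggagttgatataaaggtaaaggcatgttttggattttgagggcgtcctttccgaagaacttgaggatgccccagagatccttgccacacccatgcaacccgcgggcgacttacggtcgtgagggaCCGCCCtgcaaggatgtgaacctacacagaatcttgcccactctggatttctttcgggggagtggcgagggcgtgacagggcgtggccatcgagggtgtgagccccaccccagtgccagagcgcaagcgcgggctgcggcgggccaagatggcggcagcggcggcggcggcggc

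The upstream Dmd window held 3 E-boxes, the motif bound by MyoD and its relatives, 1 CArG box, bound by serum response factor, and 1 MEF2 site, at 45.7% GC. The internal Dmd window held none of these and 3 GC boxes, bound by Sp1, at 62.7% GC. The Sgca window held 2 E-boxes and no GC box, and the Sgcb window 1 GC box and no E-box. Of the windows not shown, that of Utrn held 7 E-boxes and no GC box, and that of Sgcd 2 E-boxes and 1 GC box. Both windows lie inside their genes as GENCODE bounds them and need not be the main promoters. Within 100 bases of the Utrn start began 1 coding transcript, of 12777 bases, while the longest of Utrn has 13544. Within 100 bases of the Sgcd start and of the first Sspn start began no GENCODE coding transcript. Both Dag1 windows held 1 E-box, with 3 and 4 GC boxes, and the Sspn windows held no GC box, with 0 and 1 E-boxes. Whether the motifs go with the tissue pattern of the genes was not tested. Among 32851 promoter windows of the same length, 72.3% held an E-box, 35.7% a GC box, 14.9% an N-box, 1.63% a CArG box and 3.19% a MEF2 site. The promoter table held 7 of the 8 genes. These matches describe letters in a window, and no binding was measured.

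Dmd transcript was present in every library of these dystrophin-deficient mice. It stood at 53.6, 51.9, 42.6 and 54.3 TPM in the 4 vehicle TAs and at 45.0, 45.7, 51.2 and 44.6 TPM in the 4 D + Q TAs. In hearts it stood at 32.1, 26.8, 34.5 and 29.8 TPM with vehicle and at 43.6, 39.9 and 32.8 TPM with D + Q. Every TA was thus above every vehicle heart, where 25.9% of 17868 genes had every vehicle TA above every vehicle heart. The highest D + Q heart in Dmd reached into the range of vehicle TAs but not of D + Q TAs. The group means were 50.6 ± 5.39 (SD, n = 4) TPM in vehicle TA, 46.7 ± 3.09 (SD, n = 4) in D + Q TA, 30.8 ± 3.27 (SD, n = 4) in vehicle heart and 38.8 ± 5.49 (SD, n = 3) in D + Q heart.

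Utrn, encoding utrophin, overlapped between vehicle TAs and vehicle hearts but not between the D + Q groups. Every D + Q TA was below every D + Q heart for 19.9% of 17868 genes. Vehicle TAs held 28.2, 37.8, 24.6 and 26.2 TPM and D + Q TAs 27.8, 24.2, 22.4 and 24.4 TPM. Vehicle hearts held 29.0, 34.7, 34.4 and 28.8 TPM and D + Q hearts 33.1, 33.2 and 29.0 TPM. Among vehicle TAs replicate 2 stood above the others, and its group overlapped all others, while every D + Q TA lay below every heart of either treatment. The share of all genes below the hearts of both treatments was not counted. The means were 29.2 ± 5.94 (SD, n = 4) TPM in vehicle TA, 24.7 ± 2.28 (SD, n = 4) in D + Q TA, 31.7 ± 3.28 (SD, n = 4) in vehicle heart and 31.8 ± 2.42 (SD, n = 3) in D + Q heart.

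Dag1, encoding dystroglycan, was the most abundant of the 8 transcripts in heart. It was at 118.5, 129.5, 95.1 and 115.8 TPM in vehicle TAs and at 103.6, 114.6, 95.4 and 108.5 TPM in D + Q TAs. Vehicle hearts had 102.3, 103.0, 110.6 and 94.3 TPM, and D + Q hearts 127.6, 131.5 and 130.6 TPM. The D + Q hearts, at 129.9 ± 2.08 TPM (SD, n = 3), overlapped neither the vehicle hearts nor the D + Q TAs, which were lower, but overlapped the vehicle TAs through replicate 2 of that group. Every D + Q heart was above every vehicle heart for 9.63% of 16132 genes, and above every D + Q TA for 19.9% of 17868.

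Of 17868 genes, 25.9% had every vehicle TA above every vehicle heart, and 26.8% every D + Q TA above every D + Q heart. Sgca, encoding alpha-sarcoglycan, the sarcoglycan found in striated muscle but hardly elsewhere, separated the tissues completely. Its levels were 133.2, 134.0, 126.0 and 110.3 TPM in vehicle TAs and 133.8, 132.9, 147.3 and 133.5 TPM in D + Q TAs, against 67.4, 65.8, 64.2 and 72.4 TPM in vehicle hearts and 84.3, 81.8 and 65.0 TPM in D + Q hearts. Sgcb, encoding beta-sarcoglycan, did not separate them, with 45.2 to 63.6 TPM over the 8 TAs and 47.9 to 62.5 TPM over the 7 hearts. In heart, however, the 58.8, 62.5 and 53.6 TPM of Sgcb with D + Q lay above the 47.9, 48.5, 51.6 and 48.2 TPM with vehicle. Such a separation of D + Q above vehicle hearts was seen in 9.63% of 16132 genes. Sgcd, encoding delta-sarcoglycan, which assembles early with beta-sarcoglycan, was at 57.9, 62.8, 43.9 and 39.6 TPM in vehicle TAs and at 44.1, 45.1, 48.9 and 45.6 TPM in D + Q TAs. In vehicle hearts Sgcd was at 27.0, 29.4, 30.4 and 25.6 TPM, and in D + Q hearts at 33.2, 32.4 and 29.8 TPM, all below every TA.

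Sspn, encoding sarcospan, a small membrane protein bound to the sarcoglycans, overlapped between the vehicle groups of both tissues. It ranged from 24.9 to 36.4 TPM in vehicle TAs, from 26.2 to 33.2 TPM in D + Q TAs, from 30.5 to 35.4 TPM in vehicle hearts and from 36.0 to 38.6 TPM in D + Q hearts. Dtna, encoding alpha-dystrobrevin (chr18:23548183-23793477, plus strand), was at 53.1, 61.7, 46.9 and 45.6 TPM in vehicle TAs and at 54.7, 47.0, 47.4 and 57.6 TPM in D + Q TAs. In vehicle hearts Dtna was at 25.7, 25.7, 26.4 and 22.7 TPM and in D + Q hearts at 29.0, 31.4 and 32.0 TPM. Every TA value of Dtna lay above every heart value, and every D + Q heart above every vehicle heart. The latter held for 9.63% of 16132 genes.

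**Figure D1:**
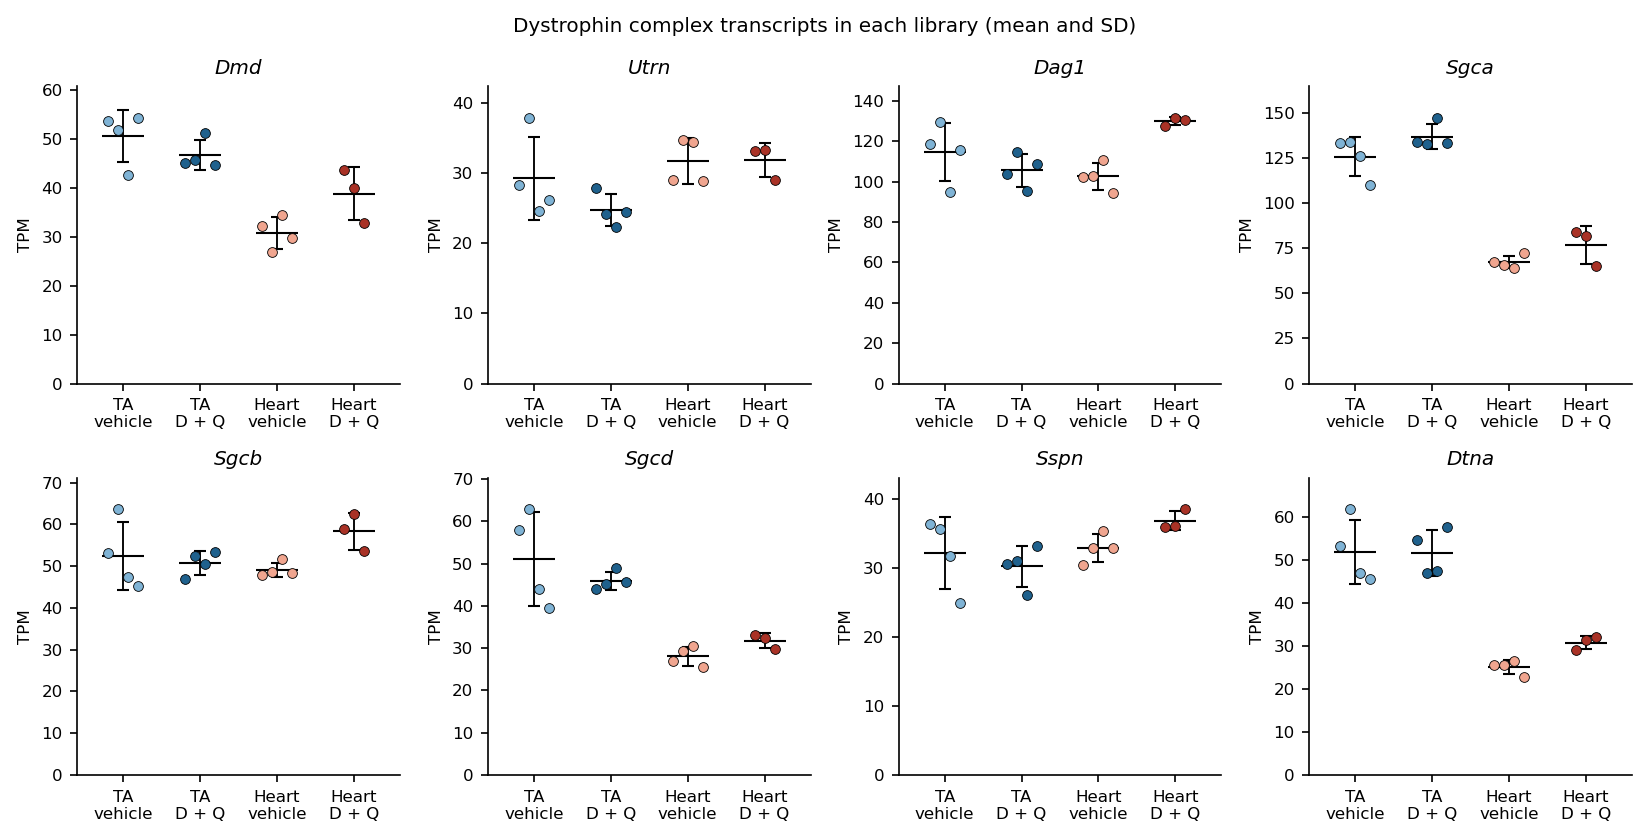
TPM (y axes, from 0) of the 8 transcripts in each library of the 4 groups (x axes); points are libraries, horizontal lines the group means and bars the SD, with n = 4 in each group except D + Q heart (n = 3). Every TA of Sgca, Sgcd and Dtna stands above every heart, where 25.9% of genes tested did so between vehicle groups and 26.8% between D + Q groups. Utrn, Sgcb and Sspn overlap between vehicle TAs and vehicle hearts while their D + Q TAs lie below their D + Q hearts, as for 19.9% of genes tested. Dag1 in D + Q hearts, at 127.6 to 131.5 TPM, overlaps only vehicle TAs. Every D + Q heart is above every vehicle heart for 9.63% of genes tested.

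The order of the 8 levels differed between the tissues. In vehicle TA, Sgca (125.9 ± 10.99 TPM, SD, n = 4) and Dag1 (114.7 ± 14.4 TPM, SD, n = 4) came first with overlapping ranges, followed after a gap by Sgcb, Dtna, Sgcd and Dmd at means of 52.3, 51.8, 51.0 and 50.6 TPM, whose ranges overlapped. Sspn and Utrn came last at 32.2 and 29.2 TPM, also overlapping, and the range of Dmd did not reach that of Sspn. The D + Q TAs kept this order of tiers, here without overlap between Sgca at 136.9 TPM and Dag1 at 105.5 TPM. In vehicle heart Dag1 came first at 102.5 TPM, Sgca at 67.4 TPM and Sgcb at 49.1 TPM followed without overlap, and Sspn, Utrn, Dmd, Sgcd and Dtna formed a run from 33.0 to 25.1 TPM in which each neighbour overlapped the next. In D + Q heart the first 3 were again Dag1, Sgca and Sgcb, and Dmd came next at 38.8 TPM with a range overlapping that of Sspn at 36.9 TPM.

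Ratios within a library do not depend on its scaling and show the unequal levels directly. The ratio of Utrn to Dmd was 0.58 ± 0.11 (SD, n = 4) in vehicle TA and 0.53 ± 0.07 (SD, n = 4) in D + Q TA, against 1.04 ± 0.17 (SD, n = 4) in vehicle heart and 0.82 ± 0.06 (SD, n = 3) in D + Q heart. Every TA library had at most 0.73 TPM of Utrn per TPM of Dmd and every heart at least 0.76, and among hearts the vehicle range of 0.90 to 1.29 lay above the D + Q range of 0.76 to 0.88. The ratio of Sgca to Sgcb was 2.43 ± 0.23 (SD, n = 4) in vehicle TA and 2.70 ± 0.22 (SD, n = 4) in D + Q TA, against 1.38 ± 0.11 (SD, n = 4) in vehicle heart and 1.32 ± 0.11 (SD, n = 3) in D + Q heart. Sgcd per Sgcb was 0.97 ± 0.09 and 0.91 ± 0.06 in the vehicle and D + Q TAs and 0.57 ± 0.03 and 0.55 ± 0.02 in the respective hearts. Dag1 per Dmd was 2.27 ± 0.16 and 2.28 ± 0.29 in the TA groups and 3.35 ± 0.33 and 3.40 ± 0.53 in the heart groups, so that the means differed between treatments by less than the SD.

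**Figure D2:**
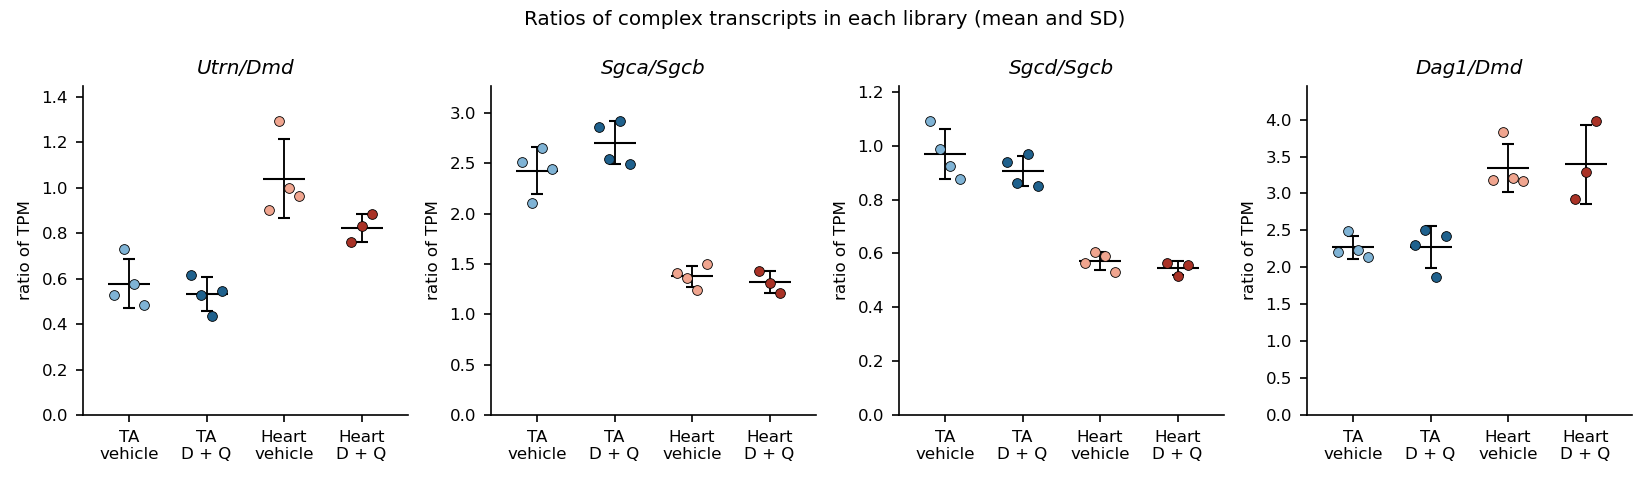
Ratio of the TPM of 2 transcripts (y axes, from 0) in each library of the 4 groups (x axes), for Utrn to Dmd, Sgca to Sgcb, Sgcd to Sgcb and Dag1 to Dmd; points are libraries, horizontal lines means and bars the SD, with n = 4 in each group except D + Q heart (n = 3). The Utrn to Dmd ratio is at most 0.73 in TAs and at least 0.76 in hearts, and the Sgcd to Sgcb ratio is 0.85 to 1.09 in TAs and 0.52 to 0.61 in hearts. How many ratios of other genes separate the groups was not counted.

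To ask whether D + Q changed the complex in TA muscle, the 4 D + Q TAs were compared with the 4 vehicle TAs in a limma fit of log2(TPM + 0.5) over 16298 genes with 1 surrogate variable. None of the 8 transcripts was called, where a call needed an adjusted p under 0.05 and a log2 fold change above 0.5 in size, and the background was 0% of genes called higher and 0% called lower. The smallest adjusted p of any gene in this limma fit was 0.999, so the lack of a call says nothing about the 8 in particular. From their count model, at the same thresholds, the authors reported genes both higher and lower with D + Q in TA. No transcript of the complex had an unadjusted p under 0.05 either, while 104 genes did among those higher (0.638%) and 384 among those lower (2.36%). The log2 fold changes ran from −0.24 for Utrn (SE 0.16, 95% interval −0.60 to 0.12) to 0.13 for Sgca (SE 0.11, 95% interval −0.12 to 0.38). Dmd had −0.07 (SE 0.12, 95% interval −0.32 to 0.19). The median over the 8 was −0.08, beside −0.07 over all genes tested, and the adjusted p was 0.999 for each of them. For none of the 8 did the D + Q values lie fully above or below the vehicle values, as they did for 0.264% and 1.25% of all genes, and the 95% intervals of the 8 reached from −0.60 to 0.38. All D + Q TAs and only 2 of the vehicle TAs came from labelled males, and in labelled males alone Dmd and Utrn were likewise not called.

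In heart, 7 of the 8 transcripts had higher fitted values after D + Q, as 49.5% of all genes did, and none passed the test. The fit of 3 D + Q and 4 vehicle hearts, with labelled sex as a covariate, covered 16132 genes, of which 0.105% were called higher and 0.211% lower. Dag1 had a log2 fold change of 0.33 (SE 0.06, 95% interval 0.19 to 0.47, adjusted p = 0.0922), that is 1.26-fold. For Dmd the value was 0.30 (SE 0.12, adjusted p = 0.240), for Dtna 0.28 (SE 0.08, adjusted p = 0.136) and for Sgcb 0.23 (SE 0.06, adjusted p = 0.126). Sgca, Sspn and Sgcd had 0.17, 0.16 and 0.15, with adjusted p of 0.411, 0.293 and 0.234. Utrn was at −0.03 (SE 0.05, 95% interval −0.16 to 0.09, adjusted p = 0.789). With sex read from Xist and Ddx3y in place of the label that D + Q heart replicate 3 goes against, no member was called, Sgcd was at 0.0864 (adjusted p = 0.680) and Utrn at −0.12 (adjusted p = 0.573).

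The median log2 fold change of the 8 was 0.20, beside −0.0025 over all genes tested. Unadjusted p-values were under 0.05 for 5 of the 8, all higher, where 9.65% of all genes were higher at that level, and Dag1, Sgcb, Sspn and Dtna had D + Q values above every vehicle value, where 9.63% of all genes did. Without D + Q heart replicate 3 this second count was 7 of 8, all but Utrn, beside a background of 17.7%. Leaving out vehicle heart replicate 3 gave 6 of 8 beside 15.4%, and leaving out any other heart gave 4. With that D + Q heart left out, Dmd had a log2 fold change of 0.45 (SE 0.13, adjusted p = 0.314) and Sgca 0.35 (SE 0.07, adjusted p = 0.239), against 0.08 (SE 0.08, adjusted p = 0.740) for Sspn. The 8 genes share the same 7 hearts and are not independent of each other.

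Other gene lists moved with these values in heart. All 8 cardiomyocyte markers had positive log2 fold changes, with a median of 0.26, of the size seen in the complex. None of the 8 was called, and their summed level was 23706 to 26289 TPM in vehicle hearts and 29691 to 31412 TPM in D + Q hearts. Of 6 atrial markers 3 were called lower, and all 8 fibroblast markers had negative values, none of them called, with summed levels of 673 to 992 TPM with vehicle and 522 to 639 TPM with D + Q. In bulk tissue, more cells of a type and more RNA per cell cannot be told apart. The part of the atrial, cardiomyocyte and skeletal fibre levels in the heart results was not tested. With the mean atrial marker level as a covariate in place of sex, no transcript of the complex was called. The summed atrial levels of vehicle and D + Q hearts did not overlap, so this fit can hardly separate treatment from atrial level. The SEs grew, with Dmd at 0.44 (SE 0.41 in place of 0.12) and Dag1 at 0.49 (SE 0.23 in place of 0.06). Sgcb was at 0.47 (SE 0.24), Sgcd at 0.50 (SE 0.27) and Sspn at 0.48 (SE 0.22), and Utrn turned to 0.53 (SE 0.28).

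Of the 51 partner genes reported here, in 3 lists of other complex genes, of the laminin matrix and fibre cytoskeleton, and of the enzymes that glycosylate dystroglycan, 45 passed the filter in each treatment fit. None of these was called in TA or in heart. In TA 2 of the 45 had an unadjusted p under 0.05, both lower and both from the matrix and cytoskeleton list, beside 2.36% of all genes. In heart 7 were higher and 2 lower at that level, beside 9.65% and 7.99% of all genes. The median log2 fold changes of the 3 lists in heart were 0.0083, 0.05 and 0.06, beside 0.20 for the 8 transcripts.

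**Figure D3:**
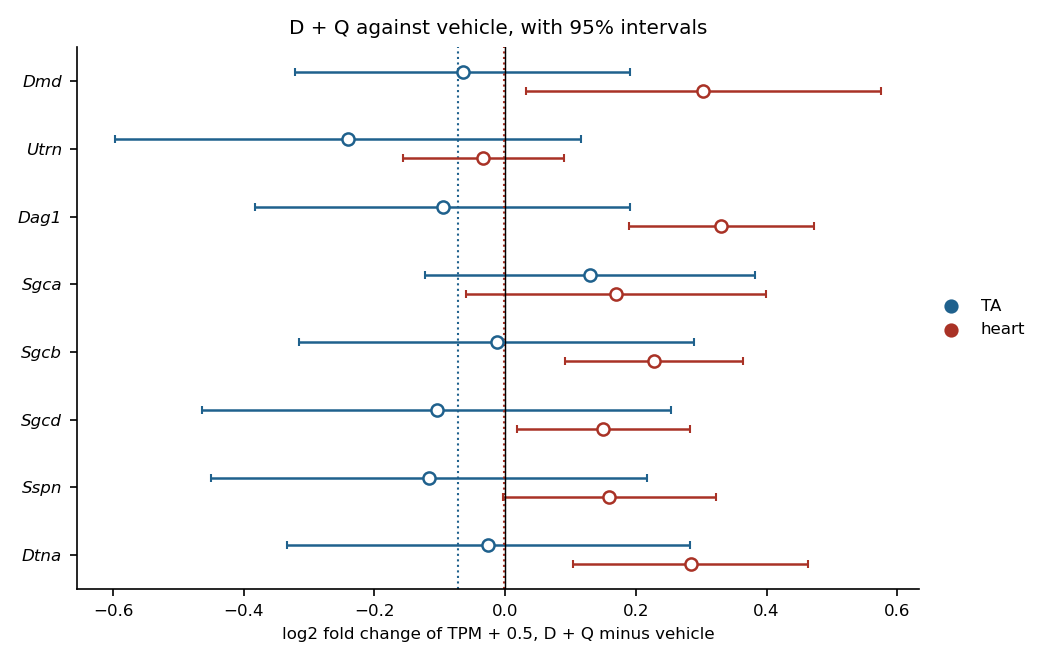
Log2 fold change of TPM + 0.5, D + Q minus vehicle (x axis), for the 8 transcripts (y axis) in TA (blue) and heart (red); bars are 95% intervals, filled points are called, and dotted lines mark the median of all genes tested in each tissue. In heart, 7 of the 8 points lie right of 0, up to 0.33 for Dag1, while all TA intervals include 0, and no point is filled.

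Whether the treatment effect differed between the tissues was tested with an interaction term in a model of all 15 libraries with 4 groups and labelled sex. None of the 8 transcripts had an adjusted p under 0.05, beside 0.0616% of 17868 genes in either direction, and 1 of the 8, Dag1, had an unadjusted p under 0.05, beside 4.22%. All 8 values, TA effect minus heart effect, were negative, from −0.05 for Sgca to −0.38 for Dag1 (95% interval −0.68 to −0.07). That for Dmd was −0.35 (95% interval −0.71 to 0.02) and that for Utrn −0.07 (95% interval −0.44 to 0.30). Their median was −0.25, beside −0.01 over all genes. A difference between the tissues was not shown, and these intervals do not show that the effects were alike. All D + Q TAs came from labelled males, and the only labelled male among the D + Q hearts expressed Xist. This model was not fitted with sex read from Xist and Ddx3y, so that a part of sex in these values cannot be told apart.

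Vehicle TA and vehicle heart differed in part of the complex. In the same model, Dmd, Sgca, Sgcd and Dtna were called higher in TA and none of the 8 lower, beside 22.5% of 17868 genes called higher and 14.2% lower. Dtna had a log2 fold change of 1.02 (SE 0.11, adjusted p = 3.0e-06), Sgca 0.89 (SE 0.10, adjusted p = 3.9e-06), Sgcd 0.83 (SE 0.13, adjusted p = 0.000104) and Dmd 0.71 (SE 0.11, adjusted p = 0.000100), that is 2.03-, 1.86-, 1.78- and 1.63-fold. Not called were Dag1 at 0.15 (SE 0.09), Sgcb at 0.08 (SE 0.10), Sspn at −0.05 (SE 0.12) and Utrn at −0.13 (SE 0.11). The median of all genes was 0.16, so that TPM as deposited sit slightly higher in TA. Rescaling by median-of-ratios factors shifted that median by −0.16 and kept the 4 calls, at 0.52 for Dmd, 0.70 for Sgca, 0.64 for Sgcd and 0.84 for Dtna. It turned Dag1 to −0.03 and Sgcb to −0.11 and brought Utrn to −0.32 (SE 0.07, adjusted p = 0.00163) and Sspn to −0.23 (SE 0.06, adjusted p = 0.00965), past the adjusted p but under the minimum fold. Over all genes it changed the 4027 called higher and 2532 called lower to 2930 and 3304. The tissues also differ in age and length of treatment, and these cannot be told apart here.

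Between D + Q TAs and D + Q hearts, Sgca, Sgcd and Dtna were called higher in TA and Dmd was not. This contrast came from the same model as the vehicle contrast and shares its residual spread and sex term, so that the tests are not independent of each other. Fitted alone and with no sex term, the D + Q libraries gave calls for the same 3 genes, with Utrn at −0.36 (adjusted p = 0.0241), Dag1 at −0.30 (adjusted p = 0.0173) and Sspn at −0.29 (adjusted p = 0.0496) past the adjusted p but under the minimum fold, and Dmd at 0.27 (adjusted p = 0.0896). Here 21.4% of genes were called higher in TA and 13.3% lower. Sgca had 0.84 (SE 0.12, adjusted p = 6.5e-05), Dtna 0.77 (SE 0.13, adjusted p = 0.000386) and Sgcd 0.59 (SE 0.16, adjusted p = 0.00828), and the call of Sgcd was lost without D + Q heart replicate 3 (0.56, adjusted p = 0.0673) and with the rescaling (0.40). Dmd had 0.36 (SE 0.13, adjusted p = 0.0450), under the minimum fold. Utrn, Dag1, Sgcb and Sspn were at −0.20, −0.22, −0.13 and −0.32 and not called, although for all 4 every D + Q TA lay below every D + Q heart, as 19.9% of all genes did. With the rescaling Sspn was called lower at −0.51 (SE 0.08, adjusted p = 0.000150), and Dag1 at −0.41 (adjusted p = 0.00582), Utrn at −0.39 (adjusted p = 0.00188) and Sgcb at −0.32 (adjusted p = 0.0114) were past the adjusted p but under the minimum fold. The same rescaling put Dmd at 0.17 (adjusted p = 0.461). Over all genes the rescaling changed the 3829 called higher and 2372 called lower to 2957 and 3266. All D + Q TAs are from labelled males, and the only labelled male among the D + Q hearts is replicate 3, which expressed Xist. In this contrast Xist was at −3.13 and Ddx3y at 3.03, each without overlap of the groups. The term for labelled sex rests on that label, and sex and tissue cannot be told apart between the D + Q groups.

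**Figure D4:**
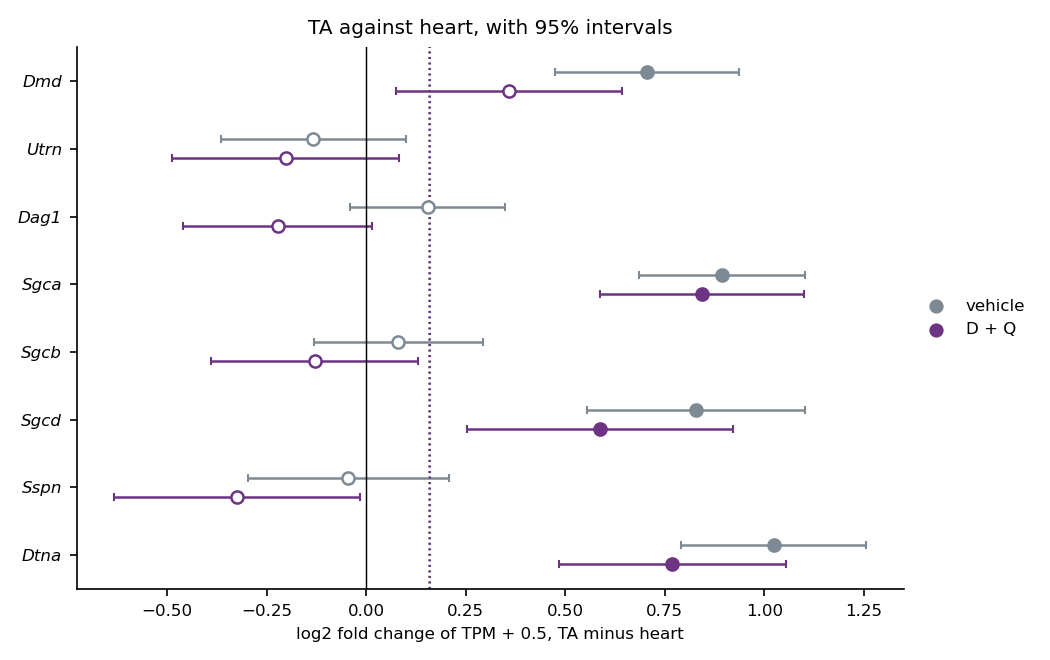
Log2 fold change of TPM + 0.5, TA minus heart (x axis), for the 8 transcripts (y axis) in vehicle (grey) and D + Q (purple) libraries; bars are 95% intervals, filled points are called and dotted lines mark the median of all genes tested. Sgca, Sgcd and Dtna are filled in both, Dmd in vehicle libraries at 0.71, and the other 4 lie between −0.32 and 0.15.

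The partners of the complex were set beside it in the vehicle contrast, where the shares of all genes called were 22.5% higher and 14.2% lower. Of 14 other complex genes 11 were tested, with 4 called higher in TA and 2 lower, and a median log2 fold change of 0.19. Nos1, encoding the neuronal nitric oxide synthase that the complex anchors in fast fibres, was highest at 5.90 (SE 0.16), with 30.03 to 35.8 TPM in vehicle TAs, 25.7 to 47.2 TPM in D + Q TAs and at most 0.12 TPM in any heart. Cmya5, encoding myospryn, had 2.35 (SE 0.10) and Drp2, a shorter dystrophin relative known from Schwann cells, 1.99 (SE 0.20). Lower in TA were Krt19, an intermediate filament protein that binds the actin-binding part of dystrophin, at −1.85 (SE 0.16), and Pgm5, which encodes aciculin, a protein of cell contacts that binds dystrophin, at −1.18 (SE 0.15). The adjusted p of these 5 was at most 2.2e-05. Drp2 at 1.63 to 2.83 TPM in vehicle TA and 0.13 to 0.43 TPM in vehicle heart and Krt19 at 0.32 to 0.57 and 2.09 to 3.37 TPM were low in both tissues, and the summed Schwann cell markers moved with Drp2, at 17.2 to 56.1 TPM in vehicle TA and 9.44 to 13.4 TPM in vehicle heart, a part that was not tested.

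Of the 19 genes of the laminin matrix and the fibre cytoskeleton, all tested, 8 were called higher in TA and 2 lower, beside the same 22.5% and 14.2% of all genes, with a median of 0.45. Plec, encoding plectin, which links intermediate filaments to dystrophin and dystroglycan, had 1.92 (SE 0.16), Sync, encoding syncoilin, a binding partner of alpha-dystrobrevin, 1.57 (SE 0.10), and Des, encoding desmin, 1.18 (SE 0.10). Plec stood at 208.8 to 304.1 TPM in vehicle TAs and 57.7 to 73.9 TPM in vehicle hearts. Agrn, encoding agrin, a ligand of dystroglycan, was lower in TA at −0.86 (SE 0.14) and Lama5, encoding a laminin chain, at −0.74 (SE 0.19), with 2.45 to 4.96 TPM in TA and 5.51 to 7.71 TPM in heart. The adjusted p of these 5 was at most 0.00615. Of 18 genes that build the sugar chains by which dystroglycan binds laminin, 17 were tested and 1 was called, under the share of all genes, B3galnt2, a glycosyltransferase of that chain, at 1.54 (SE 0.13, adjusted p = 3.5e-07). It stood at 19.5 to 30.8 TPM in vehicle TAs and 7.86 to 10.2 TPM in vehicle hearts, and the median of its list was 0.30. Over the 3 lists 13 genes were called higher and 4 lower, which the rescaling changed to 10 and 6, and in the D + Q libraries the 12 higher and 5 lower became 9 and 9. Without vehicle TA replicate 4 the count called higher in vehicle TA was 20.

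**Figure D5:**
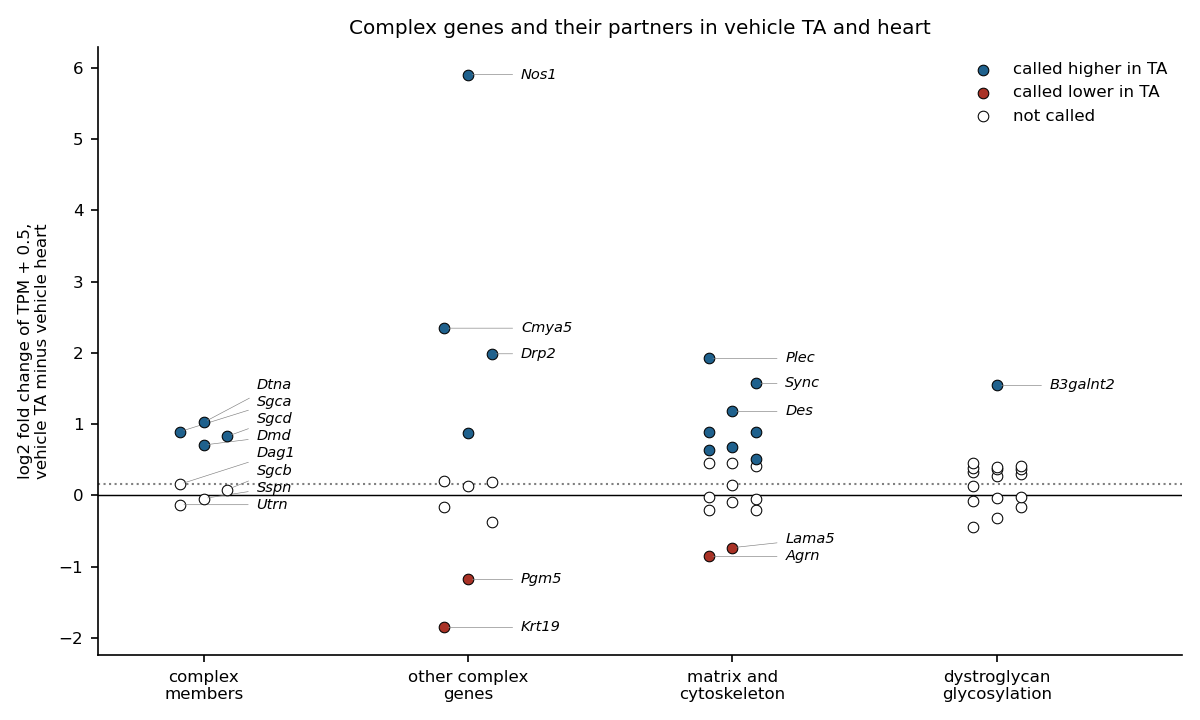
Log2 fold change of TPM + 0.5, vehicle TA minus vehicle heart (y axis), for the complex members and 3 lists of partner genes (x axis); each point is a gene, filled blue where called higher in TA, filled red where called lower and open where not called, and the dotted line marks the median of all genes tested at 0.16. Nos1 stands apart at 5.90, and Krt19 is lowest at −1.85.

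Within the families, related genes differed widely in level. Sgce, encoding epsilon-sarcoglycan, which replaces alpha-sarcoglycan in non-muscle complexes, was at 9.62 ± 2.14 (SD, n = 4) TPM in vehicle TA, 8.59 ± 1.39 (SD, n = 4) in D + Q TA, 10.8 ± 2.11 (SD, n = 4) in vehicle heart and 8.99 ± 0.17 (SD, n = 3) in D + Q heart, below Sgca throughout. Sgcz, the zeta-sarcoglycan gene, was listed at 0 in 14 of 15 libraries. Dtnb, encoding beta-dystrobrevin, was at 1.25 to 2.98 TPM over all libraries, far under Dtna. Lama2, encoding the laminin chain of the muscle basement membrane, was at 52.9 ± 6.08 (SD, n = 4) and 49.0 ± 5.05 (SD, n = 4) TPM in vehicle and D + Q TA and 32.8 ± 2.14 (SD, n = 4) and 31.2 ± 3.85 (SD, n = 3) in vehicle and D + Q heart.

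Dmd and Utrn had a low correlation between libraries of a group, which does not show that they vary separately. After each group mean was subtracted from log2(TPM + 0.5), their Pearson r over 15 libraries was 0.21, as a description over libraries that share tissue and processing. Sgcb and Sgcd had the highest r among the 8 genes, at 0.84 (0.88 over TAs and 0.66 over hearts). Over all 15 libraries Utrn was closer to Dtna (0.72), Sgcd (0.70), Sgcb (0.69) and Dag1 (0.67) than to Sspn (0.47), Sgca (0.24) or Dmd. For Dtna this held over TAs (0.84) but not over hearts, at 0.30 beside 0.31 for Dmd. Over hearts Sgcd, Sgcb and Dag1 had 0.95, 0.69 and 0.59. In likeness to Utrn, Dtna, Sgcd, Sgcb and Dag1 had ranks 1143, 1510, 1533 and 1962 of 14914. Among 14914 genes the 5 most like Utrn were Ctnnal1, Tcea2, Gm17823, Ap1s2 and Gm48655, with r from 0.96 to 0.93. The highest was Ctnnal1, which encodes a catenin-like protein, at 2.33 to 14.5 TPM. The 5 most like Dmd were Rnu4atac, Gm15971, Gm26331, Gm12097 and A330023F24Rik, with r from 0.89 to 0.83, none of them coding for protein. Of these, Rnu4atac and Gm15971 were listed at 0 in at least 1 library. The member most like Dmd was Sgca, with an r of 0.40 and rank 1347 of the 14914, and Utrn had rank 3649.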

How the data were processed

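Bulk RNA-seq libraries were made by the authors from total RNA of snap-frozen TA muscles and hearts. Per the authors' methods, reads were trimmed with Trim Galore 0.6.10, quantified with Salmon 1.10.3 against GRCm39 and summarised per gene with tximport. The deposited values are TPM for 56980 Ensembl identifiers, without the authors' filter on counts or their covariates. TPM keeps no read depth, so no counting error can be given, and the authors' count model was not run. A change in a few abundant genes moves every other TPM. In these libraries the 10 most abundant genes took 36.2% to 50.7%.

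Symbols and positions came from GENCODE M39 for GRCm39, which held 56236 of the identifiers and all 136 genes of the lists used. Samples were grouped by their labels. In R 4.3.3, limma 3.58.1 (lmFit, eBayes with trend) was fitted to log2(TPM + 0.5) for genes reaching 0.5 TPM in 3 or more of the libraries fitted. Such a log2 fold change understates the change of low genes. Covariates were 1 surrogate variable in the TA model (own code for the iteratively re-weighted method, with 5 rounds) and labelled sex in the heart model, and a further model of all 15 libraries had 4 group means and labelled sex. Benjamini-Hochberg adjustment covered all genes tested, and calls needed an adjusted p under 0.05 and a log2 fold change of more than 0.5 in size (no minimum for the interaction). The code was tested on simulated data.

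The 8 members, the partner and marker lists and the rule for named genes were chosen with earlier results of these data known. The rule names the members, partners called in a treatment contrast, the 3 called partners of each list and direction with the largest tissue difference, Sgce, Dtnb, Nos1 and Lama2 by level, and the 5 genes with the highest r to Dmd and to Utrn. Sgcz was named after its values were seen. Some partner genes are not reported here and enter no count of the lists, though they stayed in every fit. Alternatives were pseudocounts of 0.1 and 1, no filter or one at 1 TPM, median-of-ratios scaling, no trend, a replicate block, other covariates, no minimum fold and leaving out each library. The count of non-overlapping hearts without each heart was added after the data were seen.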

Additional observations from a re-analysis of the deposited data

Results flagged for a closer look

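In the 24 pairs of a member and a group of 4 libraries, the gap of the highest or lowest library to its nearest neighbour was compared with the range of the group, and 3 pairs passed Dixon's 95% critical value, where chance passes about 1 group in 20. D + Q TA replicate 3 stood above the other 3 D + Q TAs in Dmd, at 51.2 TPM, and in Sgca, at 147.3 TPM. Vehicle heart replicate 3 stood above the other vehicle hearts in Sgcb, at 51.6 TPM, with a ratio of 0.8297 that barely passed. The D + Q hearts, a group of 3, were not examined in this way.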

How the results depend on the processing

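No alternative called any of the 8 transcripts in either treatment comparison, and the 4 calls of vehicle TA over vehicle heart held in all alternatives run. Replicate numbers are shared between groups of different animals and do not pair them (mean r of same-numbered libraries −0.12 in TA and 0.02 in heart), and the replicate block changed no call of the 8 transcripts (Dag1 in heart 0.30, adjusted p = 0.223). The count of members above vehicle in every D + Q heart ranged from 4 to 7 with 1 heart left out. In the D + Q tissue contrast, median-of-ratios scaling called 1 member lower, against 0, and 9 partner genes lower, against 5. In the vehicle contrast the count of partner genes called higher, 13, became 20 with no minimum fold and ranged from 12 to 20 with 1 library left out. Small values changed sign. In TA, median-of-ratios scaling gave 0.0207 for Dmd, 0.0805 for Sgcb and 0.0592 for Dtna, labelled sex or labelled males alone gave 0.0147 for Sgcb and 0.0435 for Dtna, and leaving out 1 TA gave −0.0761 to 0.0725 for Sgcb, −0.204 to 0.0485 for Sspn and −0.120 to 0.0600 for Dtna. In heart, Utrn was at 0.0051 with no covariate and 0.53 (SE 0.28) with the atrial covariate. In the vehicle tissue contrast, the scaling gave −0.0337 for Dag1 and −0.107 for Sgcb, and leaving out 1 library gave −0.0108 to 0.175 for Sgcb and −0.117 to 0.0770 for Sspn. In the interaction, Sgca ranged from −0.27 to 0.0038. Where these changed, the cause was not tested. TPM keeps no depth, so low values such as those of Drp2, Krt19 and Dtnb have an unknown counting error.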

Other observations

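Utrn followed labelled sex in heart. The labelled males had 28.8 and 29.0 TPM with vehicle and 29.0 TPM with D + Q, and the labelled females 34.4 and 34.7 TPM with vehicle and 33.1 and 33.2 TPM with D + Q, so that no labelled male reached a labelled female. The labelled male of the D + Q group is the library that expressed Xist. In the heart model the term for labelled sex, male minus female, was −0.23 for Utrn (SE 0.05, adjusted p = 0.323) on the log2 scale, and it was not past the threshold after adjustment over 16132 genes. At an unadjusted p under 0.05 the term held for Utrn and Sgcd among the 8 transcripts, beside 14.0% of all genes, and after adjustment 0.0124% of genes passed. In vehicle TAs the ranges of Utrn overlapped, with 24.6 to 28.2 TPM in labelled males and 26.2 to 37.8 TPM in labelled females. Dmd, which lies on the X chromosome, had 42.6 and 53.6 TPM in labelled male and 51.9 and 54.3 TPM in labelled female vehicle TAs, and in vehicle hearts the 29.8 and 32.1 TPM of labelled males lay between the 26.8 and 34.5 TPM of labelled females. This pattern was noticed after the values had been seen.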
